A study of Caenorhabditis elegans with 2 samples.

Results

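The genes described here are named for factors that start and extend protein synthesis in Caenorhabditis elegans. They are the nuclear protein-coding genes whose names begin with eif-, eef-, ife- or iff-, which gave 38 genes of the 19973 nuclear protein-coding genes in the WBcel235 annotation. The rule uses names and no measured value, although it was set with earlier results of these data known. The E2F-type transcription factor EFL-1 was mapped on chromatin by ChIP-seq in transgenic worms of the strain YL478, whose EFL-1 carries GFP and FLAG at the C-terminal end. The samples were whole young adult hermaphrodites, precipitated with an antibody to GFP (1 label names the antibody efl-1), in 1 group of 2 biological replicates with no contrast between conditions. The labels do not say what drives the tagged gene, the control was not analysed here, and whole animals mix germ line and somatic tissues. Read depth is unknown from the deposited lists.

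Translation begins when eIF1, eIF1A, eIF3 and eIF2 carrying the initiator tRNA join the small ribosomal subunit, and eIF4E brings in the mRNA by its cap. eIF2B reloads eIF2 with GTP after each round. During elongation eEF1A delivers aminoacyl-tRNA, the eEF1B complex recharges eEF1A, and eEF2 moves the ribosome along the mRNA. Several factors exist in worms as germ line and somatic paralogues, among them the eIF4E proteins (ife genes) and eIF5A (iff genes). E2F proteins are best known for binding promoters of cell cycle and DNA replication genes.

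A gene was taken to have a promoter peak when the summit of a peak in the authors' thresholded (optimal) list lay within 500 bp of any of its annotated start sites. Such a peak was found for 22 of the 38 translation factor genes (57.9%, exact 95% binomial interval 40.8 to 73.7), against 10.9% of all nuclear protein-coding genes (2187 of 19973). All intervals cover counting error only, and no test was run on the list. Within 200 bp the count was 12 members, against 5.92% of all genes, and within 1000 bp it was 24, against 13.8%. With only the 1401 strongest optimal peaks it was 12, against 6.49%, and with the 5000 strongest regions of the joint list 27, against 15.8%. With outermost start sites alone it was 22, against 10.5%. From the strongest regions of replicate 2 alone it was 20, against 10.5%, and from those of replicate 1 alone 17, against 10.7%. The translation factor genes had 1.61 annotated start sites per gene, against 1.47 over all genes. No translation factor gene had more than 1 promoter peak, and none had another optimal summit inside its body. A peak was found at 5 of 6 elongation factor genes, 3 of 5 genes in the eIF2, eIF2A and eIF2D group and 6 of 11 genes named eif-3. The remaining peaks were at 2 of 2 genes of eIF1 and eIF1A, 2 of 2 of eIF5A, 2 of 5 of eIF2B and 2 of 5 of eIF4E, and none at eif-4A3 or eif-6. With so few genes in each role the intervals were wide, from 35.9% to 99.6% for elongation factors and from 23.4% to 83.3% for eIF3, so no order of the roles is drawn.

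**Figure D1:**
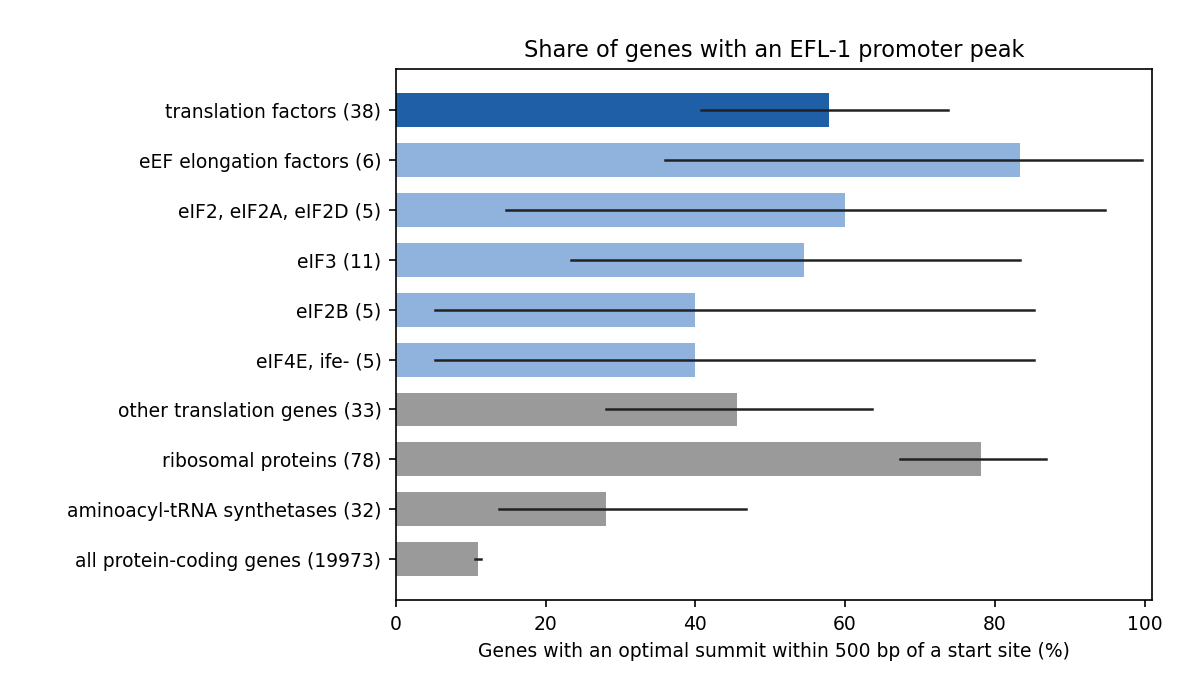
Bars give the share of genes with an EFL-1 promoter peak in percent, lines the exact 95% binomial interval, and brackets the number of genes. The translation factor genes stand at 57.9% and a mixed list of other translation genes at 45.5%. Ribosomal protein genes stand at 78.2%, aminoacyl-tRNA synthetase genes at 28.1% and all protein-coding genes at 10.9%.

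The sequences under 8 of these summits are shown so that the E2F core can be seen where a member peak holds it. Because holding the core was one reason for showing a peak, 7 of the 8 hold it. They are the 4 strongest members' peaks on the chromosomes shown, and every further member peak on those chromosomes with the core. The core was searched on both strands as TTGGCGC or TTCGCGC or TTCCCGC or TTGCCGC, and matches are in capitals. A match on the other strand reads as its reverse complement, such as GCGCCAA. Each line runs 5′ to 3′ on the strand of the translation factor gene, from 75 bp before to 75 bp after the summit where no annotated untranslated sequence lies there, and is shorter where such bases were left out. The sequence is the RefSeq genome of WBcel235, the same assembly as ce11.
iff-1, chrIII:9746802-9746952, minus strand: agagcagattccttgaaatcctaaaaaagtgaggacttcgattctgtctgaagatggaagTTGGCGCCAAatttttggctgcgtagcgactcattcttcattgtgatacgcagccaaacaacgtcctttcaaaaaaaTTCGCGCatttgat
eef-1A.1, chrIII:6972044-6972194, minus strand: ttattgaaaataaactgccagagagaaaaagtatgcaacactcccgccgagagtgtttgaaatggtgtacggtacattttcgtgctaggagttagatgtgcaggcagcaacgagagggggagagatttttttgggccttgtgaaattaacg
eef-1G, chrV:10965601-10965718, plus strand: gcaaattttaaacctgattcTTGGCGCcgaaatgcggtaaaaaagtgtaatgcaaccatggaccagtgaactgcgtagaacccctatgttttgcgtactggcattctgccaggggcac
eif-2A, chrII:10416594-10416744, plus strand: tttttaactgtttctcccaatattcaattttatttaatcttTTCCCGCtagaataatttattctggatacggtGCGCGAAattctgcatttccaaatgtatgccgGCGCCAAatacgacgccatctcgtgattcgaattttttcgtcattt
ife-3, chrV:8179-8329, minus strand: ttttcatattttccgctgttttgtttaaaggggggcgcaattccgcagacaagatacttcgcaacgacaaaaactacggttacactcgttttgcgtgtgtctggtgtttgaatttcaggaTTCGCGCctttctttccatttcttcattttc
eef-1B.1, chrIII:7973387-7973494, minus strand: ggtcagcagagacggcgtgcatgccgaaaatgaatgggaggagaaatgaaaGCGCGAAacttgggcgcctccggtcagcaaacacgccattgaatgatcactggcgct
eif-2Bdelta, chrV:9513729-9513823, plus strand: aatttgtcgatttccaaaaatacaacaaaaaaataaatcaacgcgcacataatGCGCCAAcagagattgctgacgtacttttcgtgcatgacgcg
eif-3.D, chrIII:8971759-8971891, minus strand: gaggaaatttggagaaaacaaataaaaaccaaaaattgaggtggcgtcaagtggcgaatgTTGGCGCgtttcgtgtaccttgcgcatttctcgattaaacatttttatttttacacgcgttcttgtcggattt

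In iff-1 the run TTGGCGCCAA holds overlapping matches on both strands, counted separately, and the other match lies further along. The eif-2A window has 3 separate matches, and the eef-1A.1 window has none, although its peak is of similar strength to that of eef-1G. Over all 22 members, 9 peaks (40.9%) had the core within 100 bp of the summit, against 31.6% of all 1803 promoter peaks and 5.37% of windows of the same 201 bp length centred on start sites. In windows of that length placed 500 bp to either side of the member summits, 2 of 44 (4.55%) had it. The difference between members and all promoter peaks was not tested. The 15 matches were 8 of TTGGCGC, 6 of TTCGCGC, 1 of TTCCCGC and 0 of TTGCCGC. The nearest match was a median of 19 bp from the summit, from 1 bp at eif-2A to 52 bp at eef-1G.

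The median signal was 169 over the 9 genes with the core (44.8 to 789.8) and 52.2 over the 13 genes without it (40.7 to 701). The ranges overlap almost entirely, and eif-3.C had the second strongest peak of the class with no core. The cell cycle homology region element, a partner motif of DREAM complexes, was searched as TTCGAA or TTTGAA on both strands. It was within 100 bp of 10 of the 22 summits (45.5%), against 60.9% of all promoter peaks, 49.6% of windows centred on start sites and 43.2% of the windows beside the member summits. The member peaks thus held it about as often as the windows beside them. A match to either motif describes the sequence only.

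The elongation factor genes had a median signal of 314 over 5 peaks. Of these, 4 (80.0%) were shared with another protein-coding gene, those of eef-2, eef-1A.1, eef-1G and eef-1B.1. Over all genes with a promoter peak the share was 41.2%. The signal value is the authors' own per peak, on a scale that neither labels nor files name, and values of the joint list and of each replicate's list are on separate scales. At eef-2 (WBGene00001167), whose product translocates the ribosome, the signal was 789.8 in the joint list, 349 in replicate 1 and 437 in replicate 2. This peak (I, 9163343 to 9163661) ranked 75 of 2802 nuclear optimal peaks, and its summit, 17 bp upstream of eef-2, had 3 matches to the E2F core. At eef-1A.1 (WBGene00001168), one of the pair of eEF1A genes, the signal was 321 in the joint list, 182 in replicate 1 and 139 in replicate 2. At eef-1G (WBGene00008920), the gamma subunit gene of eEF1B, it was 314 in the joint list, 165 in replicate 1 and 147 in replicate 2. These 3 genes held ranks 75 to 267 and were similar in both replicates.

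The remaining elongation factor genes were weaker or uncalled. At eef-1B.2 (IV, 15037097 to 15037232), an eEF1B subunit gene, the signal was 124 in the joint list, 75.25 in replicate 1 and 57.8 in replicate 2, with the summit 172 bp upstream. At eef-1B.1 (III, 7973341 to 7973453), another eEF1B subunit gene, it was 83.8 in the joint list, 14.5 in replicate 1 and 73.3 in replicate 2. The eef-1B.1 peak thus differed 5.06-fold between replicates, more than any other member peak, and ranked 5940 in replicate 1 against 597 in replicate 2. Its summit also overlaps the annotated noncoding RNA gene F54H12.9. The second eEF1A gene, eef-1A.2 on the X chromosome, had no optimal peak. Its strongest joint-list region near the start site had a signal of 11.2 at rank 17599. The eef-1A.1 call itself was lost within 200 bp and when each summit was given only to its nearest start site, since that summit lay nearer to rfc-4.

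**Figure D2:**
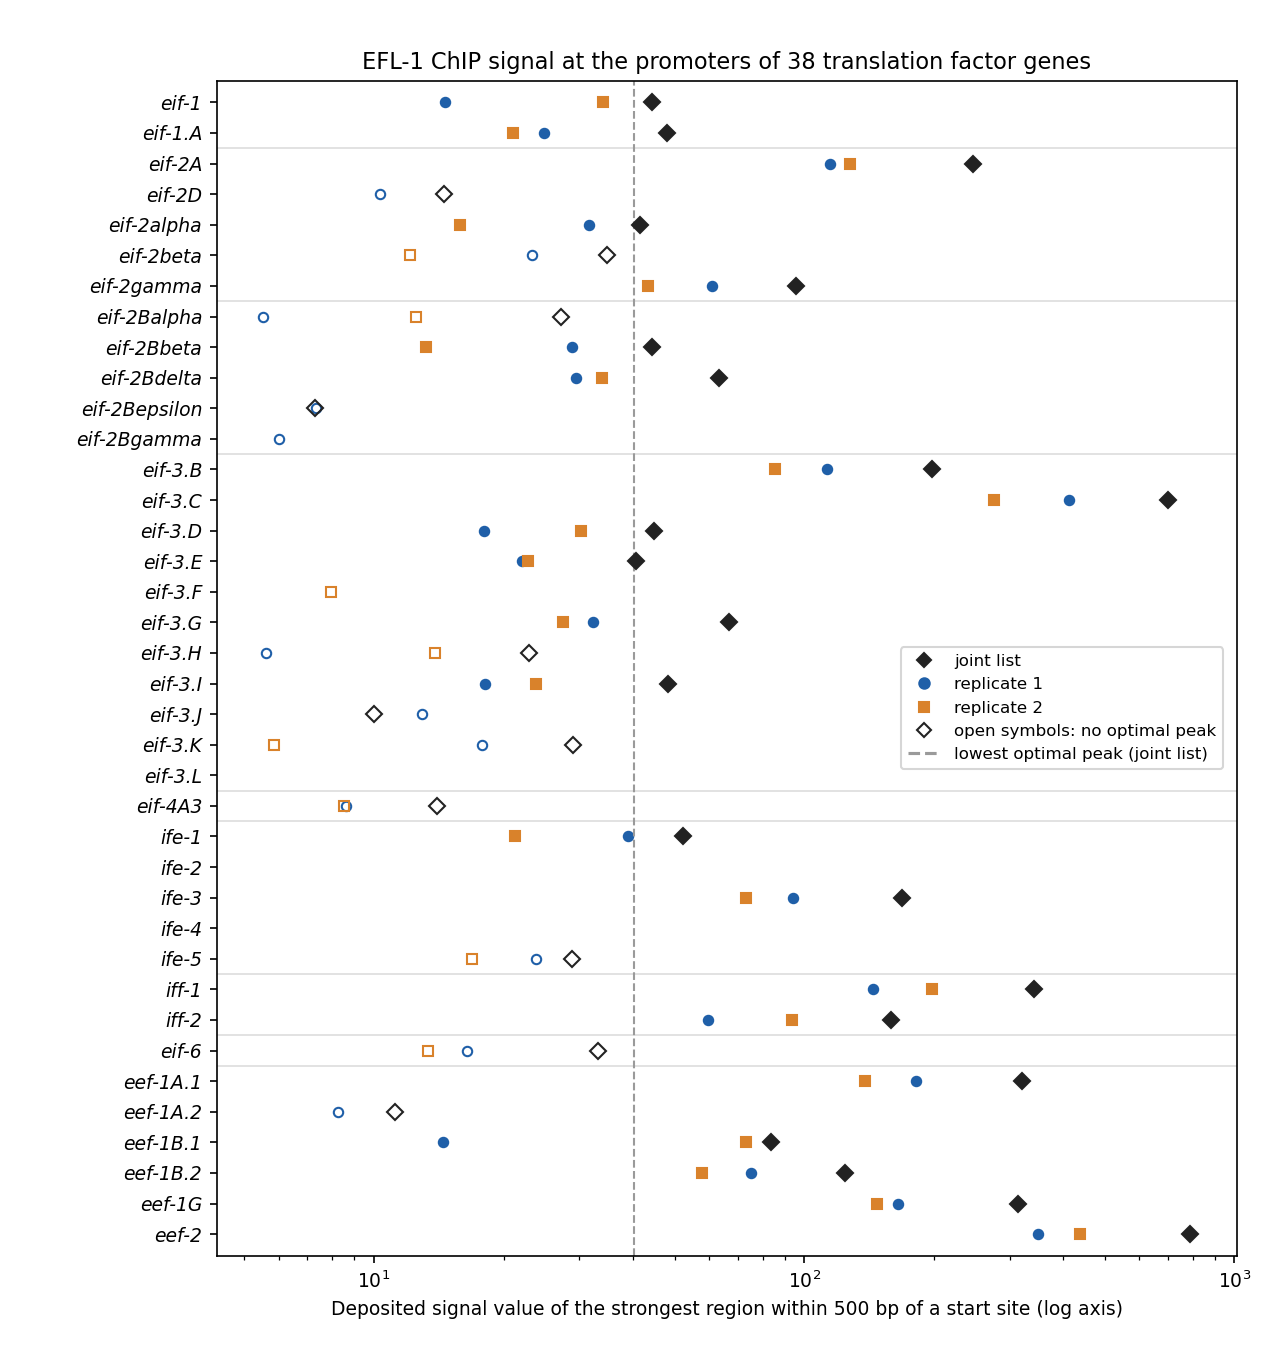
Deposited signal value on a log axis for each of the 38 translation factor genes, grouped by role. Black diamonds are the joint list, blue circles replicate 1, orange squares replicate 2, open symbols the strongest region within 500 bp where there is no optimal peak, and the dashed line the lowest joint signal of an optimal peak, 40.1. The eef-2 and eif-3.C peaks lie furthest to the right at 789.8 and 701, and eif-3.L, ife-2 and ife-4 have no symbol.

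The eIF5A genes, whose product carries the hypusine modification and aids elongation at difficult sequences, both had peaks. At iff-1 (WBGene00002064), the germ line paralogue, the signal was 342 in the joint list, 145 in replicate 1 and 198 in replicate 2. At iff-2 (WBGene00002065), the somatic paralogue, it was 159.5 in the joint list, 59.7 in replicate 1 and 93.7 in replicate 2. The germ line gene was the higher of the pair in each list. Their positions differed. The iff-2 summit was intergenic, 51 bp upstream of the nearest start site, while the iff-1 summit (peak III, 9746749 to 9746994) lay in an intron of iff-1, 273 bp upstream of an internal start site and 316 bp downstream of the outermost one. The iff-1 peak had the E2F core and the iff-2 peak (II, 8561350 to 8561502) did not.

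Among the 5 eIF4E genes, which encode cap-binding proteins, ife-3 and ife-1 had peaks. At ife-3 (WBGene00002061), the signal was 169 in the joint list, 94.0 in replicate 1 and 73.1 in replicate 2, with the summit 426 bp upstream of the nearest start site. At ife-1 (WBGene00002059), whose product is found on P granules and is needed for sperm development, it was 52.2 in the joint list, 39.0 in replicate 1 and 21.3 in replicate 2. The ife-1 summit (III, 13343554 to 13343843) was 125 bp upstream of an internal start site and 282 bp downstream of the outermost one. It also lay in an untranslated exon of dro-1, the overlapping gene on the same strand. At ife-5 the strongest joint-list region had a signal of 28.9 at rank 4154, with 23.8 in replicate 1 and 16.9 in replicate 2. The genes ife-2 and ife-4, both on the X chromosome, had no region near the start site in the joint list or in either replicate. The 3 autosomal eIF4E genes thus had regions in the joint list and both replicate lists, and the 2 X-linked ones in none of these. The ife-5 region was not in the optimal list.

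The X chromosome held 3 members, eef-1A.2, ife-2 and ife-4, and none had a promoter peak. Over all genes 1.17% of X-linked genes had one (32 of 2731), against 12.5% of autosomal genes (2155 of 17242). With 3 genes the exact interval for the X-linked members reached up to 70.8%, and peaks were rare on the whole chromosome. Of the 35 autosomal translation factor genes, 22 had a peak (62.9%, interval 44.9 to 78.5).

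The eIF3 genes, which encode the scaffold that holds the initiation complex together, had signals from 40.7 to 701. At eif-3.C (WBGene00001226) the signal was 701 in the joint list, 412 in replicate 1 and 276 in replicate 2. This peak (I, 9979764 to 9980039) ranked 91, lay 237 bp upstream of the start site and had neither motif within 100 bp. At eif-3.B (WBGene00001225) it was 198 in the joint list, 113 in replicate 1 and 85.5 in replicate 2, with the summit 230 bp upstream (II, 14795091 to 14795285). The other 4 called subunits were far lower. The signal of eif-3.G, 387 bp upstream, was 66.7 in the joint list, 32.4 in replicate 1 and 27.55 in replicate 2. At eif-3.I it was 48.1 in the joint list, 18.15 in replicate 1 and 23.8 in replicate 2, with the summit 255 bp upstream. Both lay below the median of the class. For eif-3.D the values were 44.8 in the joint list, 18.1 in replicate 1 and 30.25 in replicate 2, with the summit 256 bp upstream and 1 match to the core. The eif-3.E peak, with 40.7 in the joint list, 22.1 in replicate 1 and 22.8 in replicate 2, lay just inside the threshold, 161 bp upstream of the start site. No peak was called at eif-3.F, eif-3.H, eif-3.J, eif-3.K or eif-3.L, and eif-3.F and eif-3.L had no joint-list region within 500 bp of a start site. The eIF3 subunit genes egl-45 and cif-1 lie outside the naming rule and are not in these counts, and neither had a promoter peak. Genes for subunits of this one complex therefore ranged from rank 91 to no region at all.

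Among the factors that handle the initiator tRNA, eif-2A stood highest. This gene (WBGene00008480) encodes eIF2A, a factor distinct from the eIF2 complex, and its signal was 247 in the joint list, 115 in replicate 1 and 128 in replicate 2. Its summit (II, 10416558 to 10416770) was 131 bp upstream of the start site, 1 bp from the nearest E2F core. Within the eIF2 complex itself, eif-2gamma, the GTP-binding subunit gene, had 95.9 in the joint list, 61.0 in replicate 1 and 43.3 in replicate 2, with the summit 161 bp upstream and 1 match to the core. The alpha subunit gene eif-2alpha, whose product is the target of stress kinases, had 41.6 in the joint list, 31.6 in replicate 1 and 15.8 in replicate 2, with the summit 28 bp upstream. The beta subunit gene eif-2beta was just outside the optimal list, with 34.85 in the joint list at rank 3288, 23.3 in replicate 1 and 12.1 in replicate 2. The alpha and beta genes thus lay close to each other on either side of the threshold. No peak was called at eif-2D, whose strongest joint-list region had a signal of 14.5.

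The eIF2B genes, which encode the exchange factor for eIF2, had peaks at the beta and delta subunits. At eif-2Bdelta (V, 9513659 to 9513948) the signal was 63.4 in the joint list, 29.5 in replicate 1 and 33.8 in replicate 2, with the summit 20 bp upstream of the start site. At eif-2Bbeta (I, 11893753 to 11894042) it was 44.3 in the joint list, 28.8 in replicate 1 and 13.2 in replicate 2, with the summit 171 bp upstream. The alpha, gamma and epsilon subunit genes had no promoter peak. The optimal summit nearest to eif-2Bgamma was 576 bp from its start site, outside the window of 500 bp. With a window of 1000 bp, eif-2Bgamma and ife-5 were the 2 members gained. Both genes of eIF1 and eIF1A, which keep the scanning ribosome open, had weak peaks well upstream. The eif-1 peak, 369 bp upstream, had 44.2 in the joint list, 14.6 in replicate 1 and 34.1 in replicate 2. The eif-1.A peak, 353 bp upstream, had 47.9 in the joint list, 24.9 in replicate 1 and 21.0 in replicate 2. These 4 peaks all ranked 1738 or lower.

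The strengths were spread widely. Of the 22 genes with a peak, 7 were above 175, the upper quartile over all 2187 genes with one, and 8 were below the lower quartile of 59.4. Their median signal was 89.8, against 93.4 over all genes with a promoter peak. The class thus had a larger share of genes with a peak than genes as a whole, and a median strength close to theirs. The 16 genes without a peak included 5 with no joint-list region within 500 bp of a start site, namely eif-2Bgamma, eif-3.F, eif-3.L, ife-2 and ife-4. The highest of the other 11 were eif-2beta, eif-6 (33.1 at rank 3481), eif-3.K (29.0 at rank 4136), ife-5 and eif-2Balpha (27.2 at rank 4505). eif-6 encodes the factor that keeps the large ribosomal subunit from joining too early. None of these 16 genes had a region among the 2802 strongest of either replicate. Counting background regions as well, 33 of the 38 members (86.8%) had a joint-list region in the window, against 35.5% of all genes.

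All 22 strongest summits lay upstream of the nearest start site of their gene, against 86.1% over all genes with a promoter peak. With a window of 1000 bp it was 22 of 24 (91.7%), and without replicate 2 it was 16 of 17 (94.1%). Measured from the outermost start site instead, 20 lay upstream, the exceptions being iff-1 and ife-1. The median position was -171.5 bp for the members and -172 bp for all genes, where minus is upstream, and 12 members (54.5%) were within 200 bp, against 53.2%. The distances were spread widely, from 17 bp at eef-2 to 426 bp at ife-3. Of the summits, 20 lay outside protein-coding transcripts, among them that of eef-1B.1, which lies in the noncoding RNA gene F54H12.9.

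**Figure D3:**
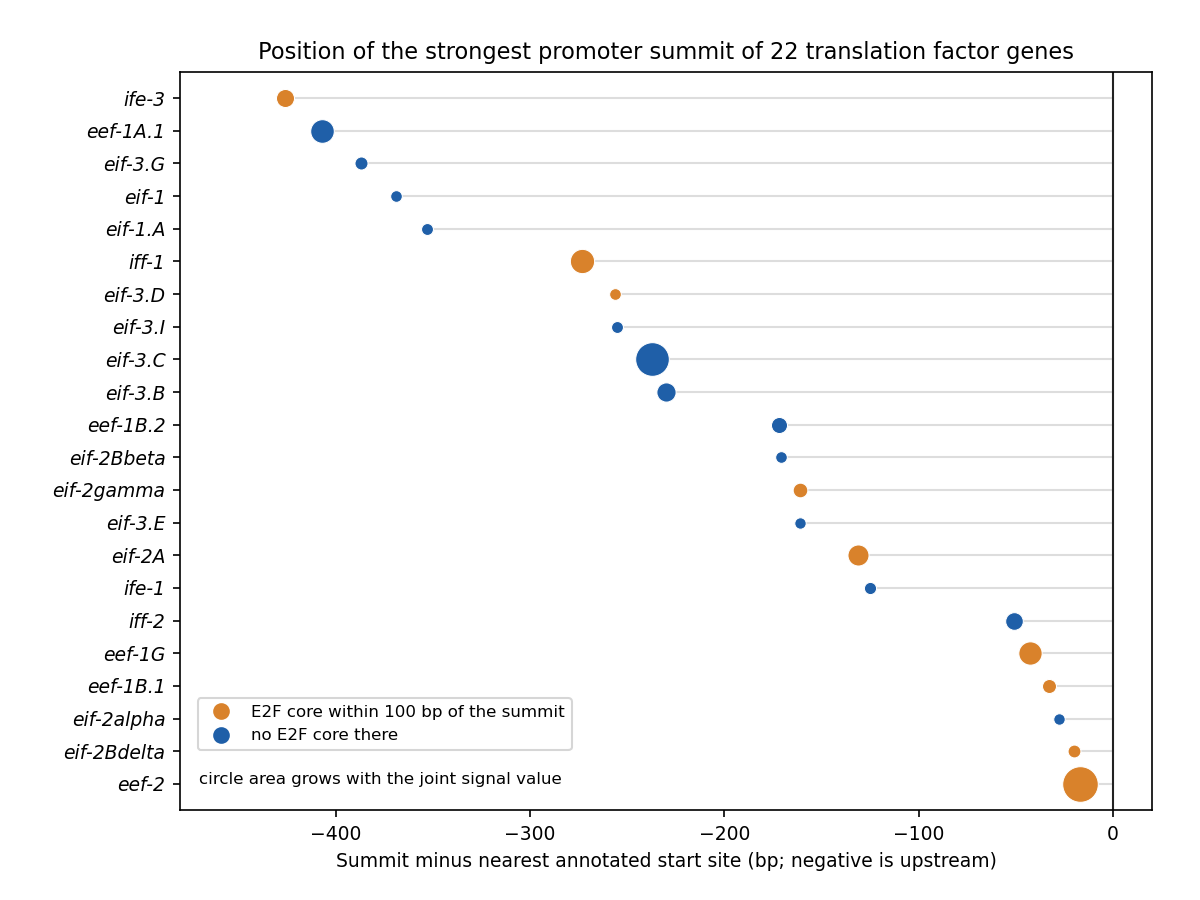
Distance in bp from the nearest annotated start site to the strongest promoter summit of each of the 22 translation factor genes with a peak, upstream to the left. Orange circles have the E2F core within 100 bp of the summit and blue circles do not, and circle area grows with the joint signal value. All 22 summits lie upstream of 0, and the largest circles, eef-2 at 17 bp and eif-3.C at 237 bp, are of different colours.

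Several of the peaks also belonged to a neighbouring gene. For 9 of the 22 members (40.9%) the same summit lay within 500 bp of the start site of another protein-coding gene, the same share as over all genes with a promoter peak (41.2%). In 8 of the 9 the genes were divergent with the summit between them. The 3 strongest of these lay between an elongation factor gene and a gene of DNA replication or its checkpoint. The eef-2 summit was 17 bp upstream of eef-2 and 248 bp upstream of clsp-1, named for the checkpoint mediator claspin. The eef-1G summit was 43 bp upstream of eef-1G and 137 bp upstream of ctf-4, whose yeast counterpart joins helicase and polymerase at the replication fork. The eef-1A.1 summit was 407 bp upstream of eef-1A.1 and only 134 bp upstream of rfc-4, a clamp loader subunit gene. That summit also lay 34 bp from the annotated microRNA gene cel-mir-5549, which is not protein-coding and was not counted as a partner. Between the protein-coding genes of each pair, the translation factor gene was the nearer for eef-2 and eef-1G, and the replication gene for eef-1A.1. These partners were seen after the peaks were assigned, and which gene of a pair EFL-1 acts on is not measured by these data.

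The other shared peaks had partners of varied function. The eef-1B.1 summit was 33 bp upstream of eef-1B.1 and 298 bp upstream of aco-2, the mitochondrial aconitase gene. The weak peaks of eif-1, eif-2Bbeta, eif-3.D and eif-3.I were nearer to the partner, which was vps-24 at 49 bp, Y47H9C.8 at 33 bp, R08D7.4 at 58 bp and abtm-1, a mitochondrial transporter gene, at 215 bp. The ife-3 summit was 485 bp downstream of a start site of B0348.10. When each summit was given only to its nearest start site, 17 of the 38 translation factor genes (44.7%) kept a peak, against 8.75% of all genes, and the 5 lost were eef-1A.1, eif-1, eif-2Bbeta, eif-3.D and eif-3.I. Worm genes are often transcribed together from a shared upstream start. Of the 8 members that overlap or start within 500 bp behind the end of the next gene on the same strand, 5 had a peak, among them eef-1B.2, eif-3.C and eif-2gamma, against 17 of the other 30. Over all genes the share with a peak was 13.2% of those close behind a gene on the same strand (528 of 4003) and 10.4% of the others (1659 of 15970).

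The replicates gave similar values for most members. In 19 of the 22 peaks (86.4%) the values in the 2 replicate lists were within a factor of 2 of each other, against 83.8% of the strongest promoter peaks of all genes. The median ratio of the larger to the smaller value was 1.32 for the members and 1.35 for all genes. On the deposited values the 3 exceptions were eef-1B.1 and eif-1, higher in replicate 2 by 5.06-fold and 2.34-fold, and eif-2Bbeta, higher in replicate 1 by 2.19-fold (ratio 2.185). Among the members, 15 peaks (68.2%) were in the 2802 strongest regions of both replicates, against 75.7% for all genes. These were the 11 members from eif-2gamma (95.9) upwards and the weaker eif-3.G, eif-2Bdelta, ife-1 and eif-1.A. The lists were called separately and 2 samples allow no test, so these ratios are descriptions. All these peaks are from the optimal list, which equals the joint regions of highest signal. The joint list was called on both replicates, so the replicate values are not independent of how the peaks were chosen. How far this bears on the ratios was not tested.

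**Figure D4:**
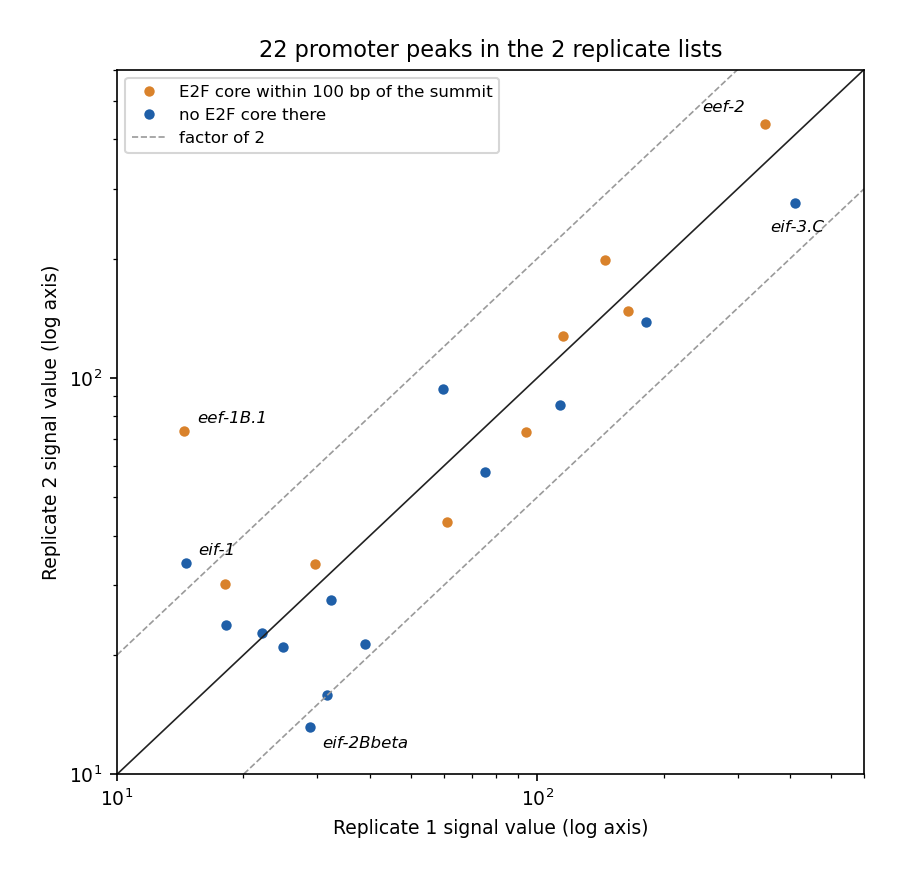
Signal value in replicate 2 against replicate 1, both on log axes, for the 22 promoter peaks of translation factor genes. Orange points have the E2F core within 100 bp of the summit and blue points do not. The solid line marks equal values and the dashed lines a factor of 2, and the points of eef-1B.1, eif-1 and eif-2Bbeta lie outside the dashed lines.

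Other genes of translation lie outside the naming rule. The list of such genes used here is mixed. Besides cytosolic factors it holds mitochondrial ones such as tufm-1 and regulators such as gcn-2, rsks-1 and let-363. Of its 36 names, 33 matched the annotation, and 15 of these (45.5%, interval 28.1 to 63.6) had a promoter peak. The strongest were drr-2, an eIF4H-like RNA-binding protein gene (signal 386, 186 in replicate 1 and 202 in replicate 2), and abcf-1, an ABC protein gene (252, with 133 and 120 in replicates 1 and 2). The next were gcn-1, an activator of the kinase GCN-2 (248, with 120 and 119 in replicates 1 and 2), and gcn-2, the eIF2 kinase gene itself (133, with 70.8 and 63.2). The last of the 6 strongest were tufm-1, the mitochondrial elongation factor Tu gene (111, with 53.8 and 50.5), and abcf-3 (93.0, with 50.04 and 44.2). Among these 6, drr-2 shared its peak with set-16, abcf-1 with scc-3, gcn-2 with Y81G3A.1 and abcf-3 with F42A10.5. Of all 15 genes, 9 (60.0%) shared the peak with another protein-coding gene, against 41.2% over all genes with a promoter peak. No peak was called at ifg-1, the eIF4G gene, inf-1, the eIF4A gene, or iffb-1, the eIF5B gene. The 2 cap-complex partners of eIF4E were thus both without a promoter peak.

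Set beside neighbouring classes, the translation factor genes lay between ribosomal protein genes and aminoacyl-tRNA synthetase genes. Their 57.9% stood against 78.2% of 78 ribosomal protein genes (interval 67.4 to 86.8) and 28.1% of 32 synthetase genes (13.7 to 46.7). The interval of the members overlaps both, and the differences were not tested. The translation factor summits had the E2F core in 40.9% of peaks, against 12.1% of the 58 peaks at ribosomal protein genes and 22.2% of the 9 at synthetase genes. Their median position was -171.5 bp, against -286 bp for ribosomal protein genes and -173 bp for synthetase genes, and 54.5% lay within 200 bp, against 14.8% for ribosomal protein genes and 44.4% for synthetase genes. The median signal was 89.8 for translation factor genes, 114 for ribosomal protein genes and 102 for synthetase genes.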

How the data were processed

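The ce11 lists of 2 biological replicates of 1 group, per the labels, were used, and the ce10 lists were not. The authors deposited a signal value per region, on a scale that no label or file names, and a −log10 q-value. The q-value column was 3.88 at every optimal peak (2825 in all), so strength was taken from the signal. Per the text deposited with the samples, each replicate list was called on that replicate with a shared control, the joint list (30000 regions, background included) on both, and the optimal list was thresholded by IDR. Aligner, caller and threshold are not stated in the labels or files. The optimal list equals the 2825 joint regions of highest signal. Ranks are among nuclear regions, 2802 of them optimal.

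The summit is the deposited offset added to the region start. Start sites are the 29314 5′ ends of protein-coding transcripts in Ensembl release 115 (WBcel235), and all regions lie within that assembly. A replicate's value is that of its strongest region overlapping the optimal peak by 1 bp or more. Where a gene has several peaks, its strongest was taken. Intervals are exact binomial (scipy 1.17.1; Python 3.11.15, pandas 2.3.3). Peak assignment and motif search were tested on simulated data. With 1 group no test was made.

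The members and lists were chosen with earlier results of these data known. Every member is accounted for by role, and every member with a peak is named with its values. Of the other translation genes, the 6 strongest and the first 3 without a peak are named, and egl-45 and cif-1 are named with eIF3. The spacing of genes on the same strand, the share of shared peaks per gene and the partner genes' roles were looked at after the data were seen. Alternatives were other windows, thresholds, start sites, assignments, motif windows, replicate matching and single replicates.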

Additional observations from a re-analysis of the deposited data

How the results depend on the processing

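The count of 22 translation factor genes with a promoter peak stayed within 1.5 times under a window of 1000 bp (24), the 5000 strongest joint regions (27), nearest start sites (17), outermost start sites (22) and single replicates (17 to 20). It was 12 with a window of 200 bp, against 5.92% of all genes, and 12 with the 1401 strongest optimal peaks, against 6.49%. The other translation genes, 15 in the main count, had 8 under each of these 2 settings. The count of members upstream of a start site was 12 of 12 at 200 bp, since fewer genes had a peak, 22 of 24 at 1000 bp and 16 of 17 without replicate 2. The median member signal was 124 with nearest start sites, and 65.5 to 75.25 (the 2 replicate lists, on their own scales) when either replicate was left out. The count of peaks with the E2F core ranged from 6 to 10 and that of replicate values within a factor of 2 was 19 throughout. Its members changed when each replicate was divided by its median over optimal peaks (45.3 and 36.4 in replicates 1 and 2). The eif-2Bbeta peak then came within a factor of 2 and the eif-3.D peak fell outside it. Leaving out replicate 2 lost eef-1B.1, eif-1, eif-3.D, eif-3.E and eif-3.I, and leaving out replicate 1 lost eif-2alpha and eif-2Bbeta; neither added a gene. No paired analysis was possible because there is 1 group. Read depth is unknown, so a gene without a peak may be bound below what these lists detect.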
